A study of Mus musculus with 7 samples.

Results

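Gene expression in primary Sertoli cells of the ERM knockout mouse was compared between 10 weeks and 4 weeks of age. ERM is the protein of the gene Etv5. The comparison rests on 2 of the 7 arrays of the series: 1 array of ERM knockout Sertoli cells at 10 weeks and 1 array of ERM knockout Sertoli cells at 4 weeks. Both groups carry the same knockout, and the labels give no strain, no description of the allele and no method of cell isolation. An array of wild-type Sertoli cells at 4 weeks is the reference set beside them. No wild-type array at 10 weeks was analysed here, so age in the knockout and age in the wild type cannot be told apart. Each array is single, so no spread between animals or preparations was measured, no statistical test was possible, and every value below describes these arrays. The sources do not give whether a preparation came from 1 mouse or was pooled. Further arrays of the series hold whole testis, and the Sertoli-derived mouse cell line TM4 without and with transfection of ERM.

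Sertoli cells line the seminiferous tubule as its somatic support. They enclose the germ cells, form the blood-testis barrier between neighbouring Sertoli cells, and release growth factors and chemokines to which the spermatogonial stem cells respond. ERM, an ETS transcription factor, acts downstream of fibroblast growth factor signalling, and mice without it are known for a progressive loss of germ cells after the first wave of spermatogenesis. The title of the series places ERM in the maintenance of male germ stem cells, and the comparison of ages asks how the RNA of the knockout preparation differs between an early and a late age.

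The array holds 45101 probe sets, each a set of short oligonucleotides for 1 transcript. Of these, 34945 were annotated to exactly 1 gene and represented 18193 genes. All arrays were brought to a common mean of 500, taken over probe sets other than controls after the lowest 2% and the highest 2% were trimmed, and a probe set was kept when it reached 100 on at least 1 of both arrays, which is 0.2 of that mean. This left 28403 probe sets. Of these, 25453 reached 100 on both arrays, 1562 on the 10-week array alone and 1388 on the 4-week array alone. The kept probe sets closest to the limit had a higher reading of 100.008, and the closest one left out had 99.97. Each gene was represented by its brightest probe set, which gave 15849 measured genes. Values below are scaled intensities, and readings under 100 were set to 100 before a ratio was taken, so that such a ratio is a bound ("at least"). Levels of different genes are not comparable on this platform, since probe sets differ in how strongly they bind.

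Of the 15849 genes, 664 (4.19%) were at least 2-fold higher at 10 weeks and 557 (3.51%) at least 2-fold lower, while 92.3% lay within 2-fold. The higher genes included 92 bounds and the lower genes 134. The median log2 ratio of 10 over 4 weeks was −0.03, with 7422 genes above 0 and 8427 below. The genes nearest to the 2-fold line had log2 ratios of 1.00003 and 0.99955 on the higher side and −1.00006 and −0.997 on the lower side, so counts at this line separate genes that read alike. Probe sets of 1 gene gave a pooled SD of 0.28 in log2 ratio (6163 probe sets of 2459 genes), which measures disagreement between probes and not between animals. Only probe sets with a mean of at least 500 over both arrays and without a bound entered this SD. It does not cover dimmer probe sets or bounds. With the brighter array at 500 or more and at least 2 probe sets that were all past 2-fold in 1 direction, 70 genes were higher and 31 lower.

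**Figure D1:**
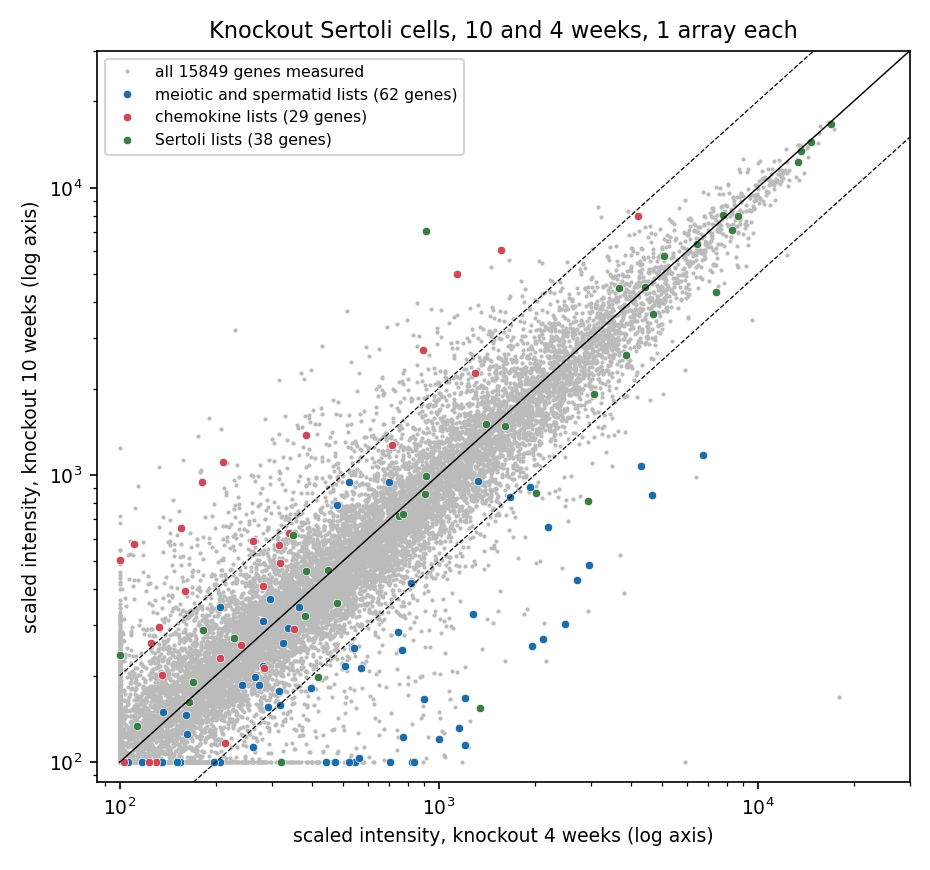
Scaled intensity of each measured gene on the 4-week knockout array (horizontal, log scale) and on the 10-week knockout array (vertical, log scale), 1 point a gene, with readings under 100 drawn at 100, a solid line at equal readings and dashed lines at a 2-fold difference. Meiotic and spermatid genes lie below the diagonal for the most part, chemokine genes above it, and Sertoli cell genes along it, with a few exceptions such as Ptgds (7089 against 911).

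Both arrays read alike in most measures of quality, and 1 control differed. The trimmed mean before scaling was 293 at 10 weeks, 288 at 4 weeks and 299 on the wild-type array, and between 72.0% and 73.8% of probe sets reached the floor. The ratio of the 3′ to the 5′ control probe set of Gapdh was 0.800 at 10 weeks, 0.829 at 4 weeks and 0.777 in the wild type. For Actb it was 1.06, 1.11 and 1.14. The 18S ribosomal RNA controls were higher on the 4-week knockout array than on both others: the 5′ control read 352 at 10 weeks, 4551 at 4 weeks and 349 in the wild type, and the middle control read 347, 3037 and 297. The 4-week knockout array is the denominator of every ratio of 10 over 4 weeks, and the part of this 18S signal in those ratios was not tested. The list of 17 housekeeping genes had 13 measured, none past 2-fold and a median log2 ratio of 0.03.

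Etv5 itself was not lower on the knockout arrays. Its brightest probe set read 995 at 10 weeks, 910 at 4 weeks and 710 in the wild type. The other probe sets read 390.4, 282 and 250.4, and 345, 295 and 281, in the same order. The sources do not give which part of Etv5 was removed, and a probe set outside it would still bind RNA of the altered gene, so these readings do not settle the labels. The log2 ratio of 10 over 4 weeks lay between 0.13 and 0.47 over the 3 probe sets.

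The Sertoli cell label was borne out by its defining markers, which were present on both arrays at near-equal levels. Sox9, the transcription factor of the Sertoli lineage, read 6380 at 10 weeks, 6439 at 4 weeks and 5220 in the wild type. Wt1, a zinc finger factor needed for Sertoli cell identity, read 4471, 3689 and 3802. Dhh, the hedgehog ligand through which Sertoli cells signal to Leydig and peritubular cells, read 1481, 1610 and 1363. Gata4 read 718 at 10 weeks and 752 at 4 weeks, against 395 in the wild type, and Rhox5, an androgen-responsive homeobox gene, read 731, 776 and 824. Of 16 identity genes 13 were measured, with a median log2 ratio of −0.01. Outside 2-fold were Gata1 (864 at 10 weeks, 2020 at 4 weeks), Nr0b1 (199 and 417) and Sox8, which read 237 at 10 weeks and under the floor at 4 weeks. Emx2 was under the floor on both arrays.

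Among 28 secreted and marker proteins of Sertoli cells, 25 were measured, with a median log2 ratio of −0.08. Of these, 1 (4.00%, against 4.19% of all genes) was at least 2-fold higher and 3 (12.0%, against 3.51%) were at least 2-fold lower. Clu, the secreted chaperone clusterin, read 16613 at 10 weeks, 17012 at 4 weeks and 16016 in the wild type. Cldn11, a claudin of the blood-testis barrier, read 7957, 8662 and 6894. Amh, the hormone of the immature Sertoli cell, read 323, 381 and 322, and Fshr, the receptor for follicle-stimulating hormone, 190, 170 and 139. The 3 lower genes were Aqp8, Slc2a3 and Espn. Aqp8, a water channel, read 155 at 10 weeks, 1349 at 4 weeks and 768 in the wild type, which is 8.72-fold lower at 10 than at 4 weeks. Slc2a3, a glucose transporter, read 813, 2936 and 3739, where 2 probe sets gave −1.85 and −2.06 (log2) and the others bounds of −1.58 and −0.97 or lower. Espn, an actin-bundling protein of the ectoplasmic specialization, read under the floor at 10 weeks and 320 at 4 weeks. Trf had no probe set annotated to it alone.

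The germ cell genes of meiosis and of spermatids were lower at 10 weeks. Of 62 measured meiotic and spermatid genes, 35 (56.5%) were at least 2-fold lower and none was 2-fold higher, against 3.51% and 4.19% of all genes, with a median log2 ratio of −1.10 beside −0.03 over all genes. Their summed intensity was 18810 at 10 weeks, 59582 at 4 weeks and 67789 in the wild type. These lists hold genes known from germ cells, and in a bulk sample fewer cells of a type and less RNA per cell cannot be told apart. Some of their probe sets also read above the floor in the TM4 line. Prm1 read 1701 there without ERM and 1408 with ERM, and Psmc3ip read 813 and 735. Others, such as Ddx4 and Mael, were under the floor on both TM4 arrays. The part of other cells in these readings was not tested. The sources do not give how completely germ cells were removed from the preparations.

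Within the meiotic list, 30 of 33 genes on the array were measured, 28 were lower at 10 weeks, 19 of them by at least 2-fold, and the median log2 ratio was −1.99. All 30 reached the floor at 4 weeks, 20 did at 10 weeks and 33 did in the wild type. Ddx4, the RNA helicase that marks the germ line, read 268 at 10 weeks, 2124 at 4 weeks and 3497 in the wild type. Dazl, an RNA-binding protein needed for germ cell development, read 255, 1959 and 2843, with a log2 ratio of −2.94 and, on its other probe set, a bound of −3.09 or lower. The synaptonemal complex, which joins paired chromosomes in meiosis, was represented by Sycp1, Sycp2 and Sycp3. Sycp3 read 431 at 10 weeks, 2708 at 4 weeks and 4176 in the wild type, and Sycp2 had a log2 ratio of −3.05. Sycp1 read 706 at 4 weeks and 785 in the wild type and was under the floor at 10 weeks. Hormad1, which monitors chromosome synapsis, was 10.6-fold lower, with readings of 114, 1207 and 1871.

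Some members of the meiotic list act with piRNAs, which silence transposons in germ cells. Mael read 302 at 10 weeks, 2481 at 4 weeks and 3617 in the wild type. Piwil2 read 167, 1206 and 1807. Piwil1, the PIWI protein of pachytene spermatocytes, was under the floor at 10 weeks and read 835 and 1016 on the other arrays, so that it was at least 8.35-fold lower. Ldhc, the lactate dehydrogenase subunit of the male germ line, read 1172, 6741 and 10048, with log2 ratios of −2.62 and −2.52 over its 2 probe sets. On each of these genes the 10-week array was the lowest of the 3 Sertoli arrays and the wild-type array the highest. The list had 2 exceptions: Msh5, a meiotic mismatch repair protein, read 784 at 10 weeks, 480 at 4 weeks and 556 in the wild type, and Dmc1, the meiotic recombinase, had a log2 ratio of 0.13.

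Spermatid genes were also lower, with a median nearer to 0. Of 32 measured genes, 27 were lower at 10 weeks, 16 of them by at least 2-fold, with a median log2 ratio of −0.98, which was −0.56 without probe sets that may cross-hybridise. Prm1 and Prm2 are the protamines that replace histones in the sperm nucleus. Prm1 read 853 at 10 weeks, 4676 at 4 weeks and 3525 in the wild type, with log2 ratios from −2.48 to −2.12 over 3 probe sets. Prm2 read 484, 2955 and 1439. The transition proteins, which precede the protamines, were also lower: Tnp2 read 132, 1157 and 771, and Tnp1 read 1072, 4295 and 3580. For these 4 genes the 4-week knockout array was the highest of the 3. This held for 11 of the 16 spermatid genes at least 2-fold lower and for 1 of the 19 such meiotic genes, and in the others, such as Pdha2 (under the floor, 825 and 1375) and Pgam2 (123, 770 and 933), the wild type was the highest. Of the measured spermatid genes 5 were higher at 10 weeks, among them Acr, Spaca1 and Tssk2: Acr, the acrosomal protease, read 945, 700 and 1062, and the others had log2 ratios of 0.86 and 0.76.

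The spermatogonial lists had medians nearer to 0. Of 11 measured genes of differentiating spermatogonia, 2 (18.2%, against 3.51% of all genes) were at least 2-fold lower and none higher, with a median of −0.39. One of the 2 was Tex101, a germ cell surface protein, which read 9.7 at 10 weeks, 1183 at 4 weeks and 1752 in the wild type and was at least 11.8-fold lower. The other was Dmrtb1, a factor that acts at the entry into meiosis, with 289 at 4 weeks and a reading under the floor at 10 weeks. Of 20 measured genes of undifferentiated spermatogonia, 2 (10.0%) were at least 2-fold lower, none was 2-fold higher and the median was 0.08. These 2 were Cdh1 (E-cadherin), with 128, 1023 and 734, and Id4, an inhibitor of helix-loop-helix factors, with 1819, 4598 and 2838. Both genes are also made by other cells of the testis or in epithelia. Lin28a and Sall4, which mark spermatogonia, were under the floor on both arrays. Some measured members were dim, such as Kit (203, 125 and 158) and Prdm1 (144, 152 and 149). Bcl6b and Zbtb16 read 1586 and 350 at 10 weeks and more in TM4 without ERM (3299 and 992). Eomes did the reverse, with 922 and 99.6. The medians of these lists therefore do not measure spermatogonia alone.

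**Figure D2:**
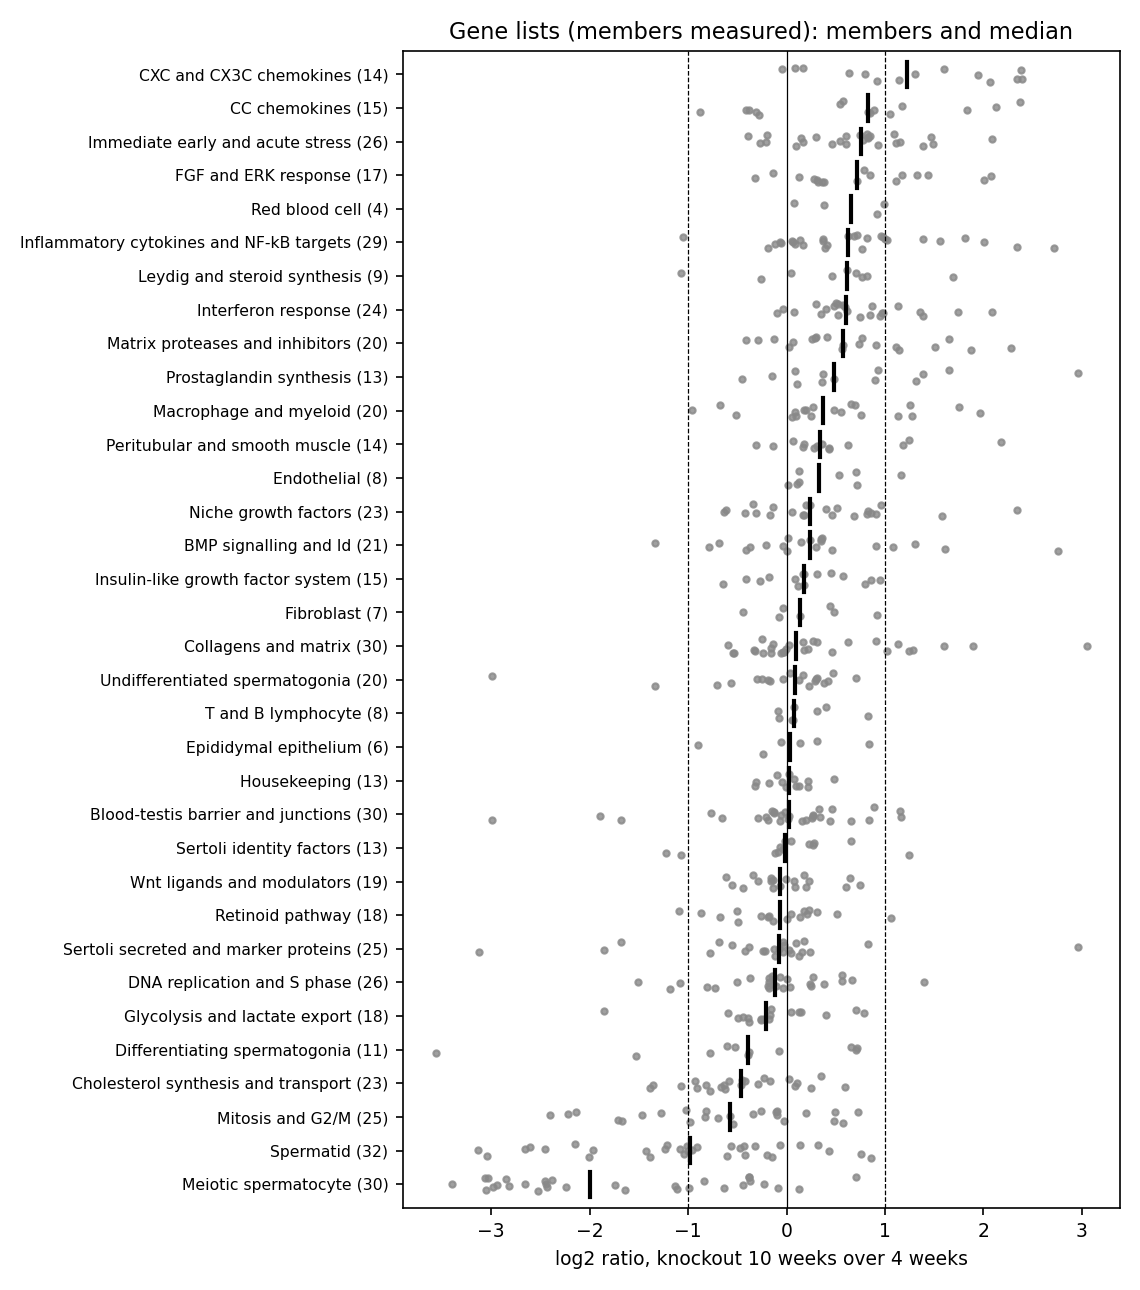
Log2 ratio of 10 over 4 weeks in knockout Sertoli cells for every measured member of each gene list, 1 point a gene, with the list median as a bar and dashed lines at a 2-fold difference. The meiotic list has the lowest median (−1.99) and the CXC and CX3C chemokine list the highest (1.23).

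Cell cycle genes showed the same direction at the stage of division. Of 25 measured genes of mitosis and G2/M, 8 (32.0%, against 3.51% of all genes) were at least 2-fold lower at 10 weeks and none 2-fold higher, with a median log2 ratio of −0.57. Cdc20, an activator of the anaphase-promoting complex, read 208 at 10 weeks, 1099 at 4 weeks and 1847 in the wild type, where 2 probe sets gave −2.40 and −1.74 (log2) and the remaining one a bound of −1.19 or lower. Ccnb2, a B-type cyclin, was under the floor at 10 weeks and read 467 and 635. Both probe sets of Cks2, a small subunit of cyclin-dependent kinases, gave log2 ratios near −2.05 (502, 2084 and 2262 for the brighter one). Top2a, the topoisomerase of dividing cells, was less certain, since a log2 ratio of −2.14 stood beside a second probe set that read 123 at 10 weeks and under the floor at 4 weeks. Of 26 measured genes of DNA replication and S phase, 1 was at least 2-fold higher (Pola1, 3.85%) and 3 lower (Ccne2, Hells and Uhrf1, 11.5%), with a median of −0.12. Each of these 4 fell within 2-fold under at least 1 alternative setting of floor or probe set rule, and another probe set of Hells gave 0.21. Meiotic cells also divide, and the part of the germ cell genes above in these values was not tested.

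Chemokines were higher at 10 weeks than at 4 weeks in the knockout. Of 29 measured chemokine genes, 13 (44.8%) were at least 2-fold higher and none was 2-fold lower, against 4.19% and 3.51% of all genes, and the median log2 ratio was 0.89. The summed intensity of both lists was 35960 at 10 weeks, 14932 at 4 weeks and 51162 in the wild type at 4 weeks. The wild-type sum was thus the highest and the 4-week knockout sum the lowest. Chemokines are secreted proteins that guide leukocytes, and some of them also guide germ stem cells.

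Of the CC chemokines, 5 of 15 measured genes were at least 2-fold higher, with a median of 0.83. Ccl2, which attracts monocytes, read 5003 at 10 weeks, 1141 at 4 weeks and 8863 in the wild type. Ccl7, a related monocyte attractant, read 574, 111 and 2739, and Ccl5 read 1373, 385 and 1406. All 3 were lowest on the 4-week knockout array and highest in the wild type, by little for Ccl5. Ccl9, another macrophage chemokine, read 590, 262 and 1169, and the remaining one was Ccl17 with 260, 126 and 132.

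Of the CXC and CX3C chemokines, 8 of 14 measured genes were at least 2-fold higher, 13 were above 0 and the median was 1.23. Cxcl10 and Cxcl11 are ligands of the receptor CXCR3 and respond to interferon. Cxcl10 read 6079 at 10 weeks, 1573 at 4 weeks and 4892 in the wild type. Cxcl11 read 1108, 211 and 699, with a log2 ratio of 2.39 and, on its other probe set, a bound of 1.37 or higher. The neutrophil attractants had a like order with a higher wild-type reading: Cxcl2 read 656, 156 and 958, Cxcl3 read 944, 181 and 2377, and Cxcl5 read 2714, 893 and 8235. Cxcl1 was short of 2-fold, with 7979, 4221 and 9583. Cxcl12, the ligand of CXCR4 and a homing factor for germ stem cells, did not give 1 answer. The probe set that represents it, brightest by the mean over 5 arrays with the TM4 line, read 506, under the floor, and 1256. That is at least 5.06-fold higher at 10 weeks and places Cxcl12 among the 8. The probe set that was brightest on both knockout arrays read 587, 586 and 452, a log2 ratio of 0.00. The remaining one gave 1.44.

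Genes of cytokine signalling and of the NF-kB response were higher in part. Of 29 measured genes, 8 (27.6%, against 4.19% of all genes) were at least 2-fold higher, 20 lay within 2-fold and 1 was 2-fold lower, with 24 above 0 and a median log2 ratio of 0.62. Icam1, an adhesion molecule for leukocytes, read 2821 at 10 weeks, 430 at 4 weeks and 934 in the wild type, a 6.56-fold difference between the knockout ages. Vcam1, another adhesion molecule, read 3792, 944 and 2290, and its 3 probe sets had log2 ratios from 1.95 to 2.13. Tnfaip3, an inhibitor of NF-kB signalling that is itself an NF-kB target, read 1960, 556 and 1135. Il1rn, the interleukin 1 receptor antagonist, read 1102, 218 and 1146, and Ptx3, a secreted pattern recognition protein, read 2271, 771 and 4268 with a second probe set at −0.07. The lower gene was Selp, an adhesion molecule of endothelium and platelets, with 1877, 3903 and 2485 on a probe set that can bind several transcripts. Its other measured probe set gave a log2 ratio of 0.41. The remaining genes below 0 were Il6, Csf2, Lcn2 and Nfkb2, with log2 ratios from −0.19 to −0.06 on the probe sets that represent them. Il6, interleukin 6, read 289, 329 and 2039 and so was far below the wild type at both knockout ages.

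Interferon-responsive genes had 5 of 24 measured members (20.8%, against 4.19% of all genes) at least 2-fold higher, none 2-fold lower, 22 above 0 and a median of 0.61. Ifit2, an antiviral protein, read 901 at 10 weeks, 212 at 4 weeks and 902 in the wild type. Rsad2, the antiviral enzyme viperin, read 3848, 1474 and 4227, with log2 ratios from 1.36 to 1.74 over 3 probe sets. Psmb9 and Tap1, which prepare and carry peptides for antigen presentation, read 1394, 415 and 675, and 2060, 938 and 1327. The fifth gene was Cd274, the ligand of the checkpoint receptor PD-1, with 363, 142 and 322.

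Markers of macrophages were measured on the same arrays, since macrophages make many of these RNAs. Of 24 macrophage and myeloid genes 20 were measured, and the median was 0.38. At 10 weeks 5 (25.0%, against 4.19% of all genes) were at least 2-fold higher and none was 2-fold lower, against 3.51%. Their summed intensity was 17240 at 10 weeks, 10692 at 4 weeks and 21673 in the wild type, which is the same order as for the chemokines. Ctss, a lysosomal protease, read 1830, 468 and 3801, and Cd53, a leukocyte tetraspanin, 289, 121 and 1006. Fcer1g, Cd14 and Clec7a were the others past 2-fold. Cd53 and Clec7a, at 121 and 142 on the 4-week knockout array, fell within 2-fold under at least 1 alternative setting. Adgre1 (F4/80) read 336, 294 and 451, Csf1r read 1945, 1617 and 2561, and Cd68 read 388, 362 and 1034, so these 3 differed by less than 2-fold between the knockout ages. The other direction was seen in 3 members of the list, none past 2-fold: Fcgr3 read 125, 242 and 786, Aif1 read 139, 222 and 198, and Mrc1 read 360.2, 513 and 470.2. C1qa, Cd163, Itgam and Ptprc were under the floor on both knockout arrays. Of 8 measured lymphocyte genes none differed 2-fold, and their sum was 2221 at 10 weeks, 1923 at 4 weeks and 2316 in the wild type. The part of macrophage RNA in the chemokine and cytokine values was not tested.

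**Figure D3:**
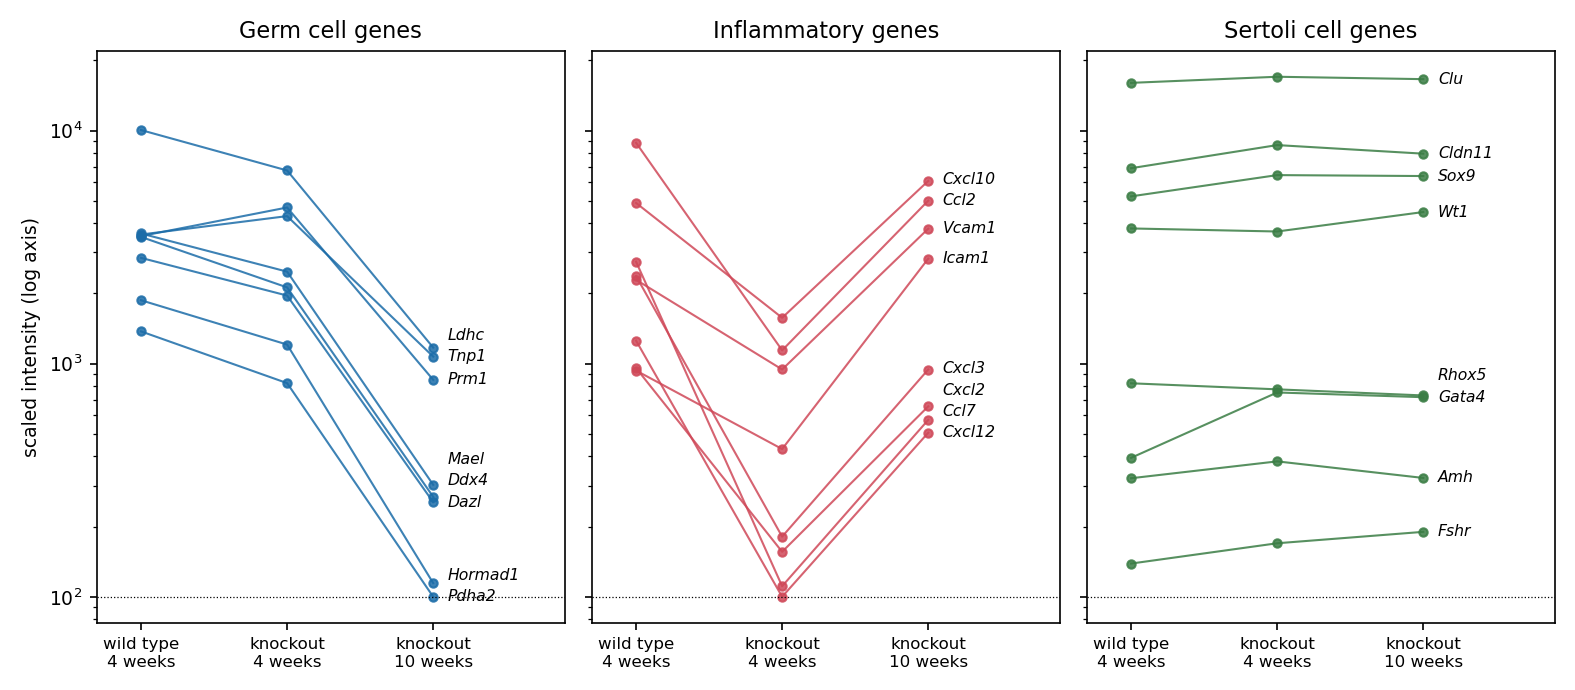
Scaled intensity (log scale) of 24 named genes on the 4-week wild-type, 4-week knockout and 10-week knockout Sertoli cell arrays, 1 line a gene and 1 point an array, with a dotted line at the floor of 100, where lower readings are drawn. The germ cell genes shown are lowest at 10 weeks and the inflammatory genes shown are lowest on the 4-week knockout array, while the Sertoli cell genes shown read within 2-fold over both knockout arrays. Each gene is drawn by the probe set that represents it. Another probe set of Cxcl12 read 587 at 10 weeks and 586 at 4 weeks in the knockout.

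The wild-type array at 4 weeks put the inflammatory and germ cell lists in different positions. Each of the 3 comparisons shares an array with the others, so their values are given side by side and not as separate evidence. For the CXC and CX3C list the median log2 ratio was 1.23 for 10-week over 4-week knockout, −0.11 for 10-week knockout over wild type and −1.41 for 4-week knockout over wild type. For CC chemokines these medians were 0.83, −0.34 and −0.64, and for the cytokine list 0.62, −0.03 and −0.41. No chemokine was at least 2-fold higher at 10 weeks than in the wild type, where 1.62% of all genes were, and 5 were at least 2-fold lower, where 4.22% were. Against the wild type, 4-week knockout cells had 14 chemokines at least 2-fold lower, where 3.18% of all genes were, and none higher (0.681% of all genes). For the meiotic list the 3 medians were −1.99, −1.79 and −0.53, and 23 of 33 genes were at least 2-fold lower at 10 weeks than in the wild type. For spermatid genes they were −0.98, −0.73 and 0.25. The meiotic and spermatid medians were thus below 0 against both references, whereas both chemokine medians were above 0 against the 4-week knockout array and below 0 against the wild type. Of 26 chemokines measured against the wild type, 10 were above 0, among them Ccl17 with a log2 ratio of 0.99 and Cxcl11 with 0.67.

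**Figure D4:**
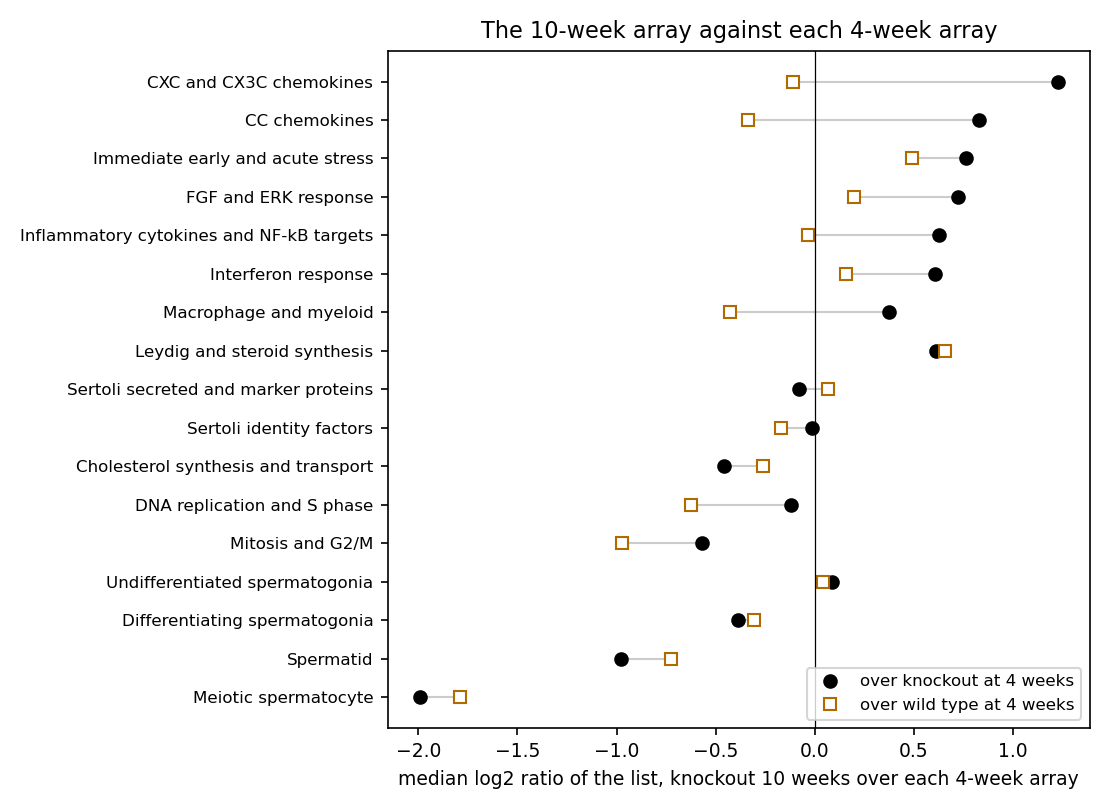
Median log2 ratio (horizontal axis) of 17 gene lists, 1 line a list, for the 10-week knockout array over the 4-week knockout array (filled circles) and over the 4-week wild-type array (open squares). Both symbols lie far below 0 for the meiotic list (−1.99 and −1.79), while those of the CXC and CX3C chemokine list lie at 1.23 and −0.11.

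The promoters of these genes were searched because the chemokine, cytokine and interferon genes that read higher together include textbook targets of NF-kB and of interferon. The sequence window was the 250 bases before the transcription start in RefSeq (GRCm38.p6), and 19 of the 26 chemokine, cytokine and interferon genes at least 2-fold higher had one in the table used. The patterns searched on both strands were GGG then any 2 bases then TTTCC (the first NF-kB pattern), GGGANTTCC (the second), GGGA then any 1 base then TTTCC (the third), GAAA then any 2 bases then GAAA for the interferon-stimulated response element (ISRE), TGANTCA for AP-1, TGACGTCA and TGACGT for CREB, CCGGAAG for ETS factors, AACNGTT for MYB and GTTGCCA for RFX factors. The third NF-kB pattern is a special case of the first, the second can overlap both, and the shorter CREB pattern lies within the longer. The windows of 6 genes that differed between the ages are printed 5′ to 3′ on the strand of the gene, with matches in capitals (the first NF-kB pattern in Cxcl2, Cxcl3 and Tnfaip3, the ISRE in Cxcl10 and Rsad2, GGGANTTCC in Cxcl10, and AACNGTT in Ldhc, or the reverse complement of each). They are Cxcl2 at chr5:90903649-90903898 (+ strand), Cxcl3 at chr5:90785851-90786100 (+ strand), Tnfaip3 at chr10:19015411-19015660 (− strand), Cxcl10 at chr5:92348890-92349139 (− strand), Rsad2 at chr12:26456453-26456702 (− strand) and Ldhc, upstream of the first of its 2 listed starts, at chr7:46861013-46861262 (+ strand).
Cxcl2: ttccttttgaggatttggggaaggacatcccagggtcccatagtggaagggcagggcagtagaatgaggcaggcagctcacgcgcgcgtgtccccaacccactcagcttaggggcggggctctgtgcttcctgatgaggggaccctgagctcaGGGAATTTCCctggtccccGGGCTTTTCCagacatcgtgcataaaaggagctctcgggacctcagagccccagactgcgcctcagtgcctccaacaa
Cxcl3: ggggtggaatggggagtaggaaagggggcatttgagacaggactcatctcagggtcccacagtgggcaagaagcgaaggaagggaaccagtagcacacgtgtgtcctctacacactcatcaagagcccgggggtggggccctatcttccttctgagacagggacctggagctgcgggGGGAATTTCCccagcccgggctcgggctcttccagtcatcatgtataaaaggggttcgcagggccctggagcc
Tnfaip3: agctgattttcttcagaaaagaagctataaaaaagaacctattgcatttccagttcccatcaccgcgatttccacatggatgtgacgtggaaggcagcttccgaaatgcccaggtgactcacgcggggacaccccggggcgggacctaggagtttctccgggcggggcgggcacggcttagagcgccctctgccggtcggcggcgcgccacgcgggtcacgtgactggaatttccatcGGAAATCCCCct
Cxcl10: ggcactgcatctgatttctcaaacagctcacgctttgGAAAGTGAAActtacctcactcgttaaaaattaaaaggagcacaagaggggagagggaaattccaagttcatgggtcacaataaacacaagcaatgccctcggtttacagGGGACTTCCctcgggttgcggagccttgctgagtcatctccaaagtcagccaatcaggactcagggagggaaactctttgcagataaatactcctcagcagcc
Rsad2: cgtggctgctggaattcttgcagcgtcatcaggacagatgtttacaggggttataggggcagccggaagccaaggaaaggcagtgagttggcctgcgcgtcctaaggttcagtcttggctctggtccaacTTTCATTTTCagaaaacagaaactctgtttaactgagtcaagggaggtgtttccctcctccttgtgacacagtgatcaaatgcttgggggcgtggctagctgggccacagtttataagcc
Ldhc: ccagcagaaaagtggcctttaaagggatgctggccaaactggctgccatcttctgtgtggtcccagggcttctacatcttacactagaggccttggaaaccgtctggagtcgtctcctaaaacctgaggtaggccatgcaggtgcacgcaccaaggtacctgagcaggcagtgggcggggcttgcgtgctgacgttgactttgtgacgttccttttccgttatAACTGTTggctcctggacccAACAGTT

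The first NF-kB pattern was present in the windows of Ccl9, Cxcl2, Cxcl3, Il1rn and Tnfaip3, which are 5 of the 19 higher chemokine, cytokine and interferon genes with a window. It was present in 12 of 66 (18.2%) of the measured members of those lists whatever their ratio. Of all 27025 genes with a window, called all promoters below, 1.65% had it. It was present in 3.94% of the genes at least 2-fold higher and in 1.33% of those at least 2-fold lower. Shares are of genes with a window, and a gene with several windows counted once, when any of them matched. The genes measured here, from which the higher and lower genes come, had it in 1.76%. The Cxcl2 window holds a pair of matches and the Cxcl3 window 1. The ISRE pattern was present in Cxcl10, Cxcl14, Rsad2 and Saa3, again in 12 of 66 measured list members, in 3.46% of all promoters, 3.05% of the genes measured, 6.89% of the higher and 1.33% of the lower genes. The AP-1 pattern was present in 7.82% of all promoters, 6.295% of the genes measured, 10.4% of the higher and 5.765% of the lower genes. The ETS pattern, the one that fits the family of ERM, was present in 7.83% of all promoters, 12.7% of the genes measured, 6.50% of the higher and 8.87% of the lower genes. The shorter CREB pattern was present in 7.29% of all promoters, 10.15% of the genes measured, 9.65% of the higher and 7.76% of the lower genes. The longer one was present in 2.70% of the genes measured and 2.76% of the higher genes, and the RFX pattern in 4.08% and 2.95%. GGGANTTCC was present in 2.101% of the genes measured and 2.95% of the higher genes, and the remaining NF-kB pattern in 0.5055% and 1.18%. Of 31 lower meiotic and spermatid genes with a window, 4 held the MYB pattern (Ldhc, Pdha2, Smcp and Sycp1), which is 12.9% beside 4.27% of all promoters and 3.75% of the genes measured, and none held TGACGTCA. A match describes letters in the window and is not a measured binding site.

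Genes of the response to FGF and ERK signalling, the pathway upstream of ERM, had 6 of 17 measured members (35.3%, against 4.19% of all genes) at least 2-fold higher at 10 weeks, none 2-fold lower and a median log2 ratio of 0.72. Spred1, an inhibitor of the pathway, read 2266 at 10 weeks, 564 at 4 weeks and 1354 in the wild type, and its 6 measured probe sets gave log2 ratios from 0.95 to 2.01. Epha2, an ephrin receptor, read 964, 228 and 507. Phlda1, Dusp5, Fosl1 and Spry2 were the others past 2-fold. Against the wild type the median of the list was 0.20. Of 26 measured immediate early and acute stress genes, 7 (26.9%) were at least 2-fold higher, none 2-fold lower, and the median was 0.76, against 0.49 for 10 weeks over wild type. Dusp1, a phosphatase of MAP kinases, read 1296, 305 and 897, and Atf3, a stress-induced transcription factor, read 1066, 384 and 453. Ccn1, a secreted matrix protein of the early response, gave log2 ratios from 1.39 to 2.22 over 4 probe sets.

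The genes furthest up at 10 weeks came from several groups. Wfdc18, a small secreted protein with a whey acidic protein domain, read 3192 at 10 weeks, 230 at 4 weeks and 746 in the wild type, 13.9-fold between the knockout ages. Peg12, a paternally expressed imprinted gene, read 1240, 38.2 and 107, at least 12.4-fold. Ptgds, the enzyme that makes prostaglandin D2 and a known Sertoli product, read 7089, 911 and 1099, with probe sets at log2 ratios of 2.96 and 3.13. It is among the genes for which the 10-week array stood apart from both 4-week arrays. The other genes of prostaglandin signalling past 2-fold, of 13 measured, were Ptgis (440, 140 and 235), Ptgs2 (300, 115 and 808) and Ptgir (969, 390 and 547), and the median was 0.48. With Ptgds these were 4 of 13 (30.8%, against 4.19% of all genes). Snai2, a transcriptional repressor of epithelial genes, read 1037, 180 and 284, with log2 ratios of 2.53 and 2.34. Tmem47, a junctional membrane protein, read 2263, 369 and 724, and Reg3g, a secreted antimicrobial lectin, read 3714, 515 and 935. Agt, the precursor of angiotensin, read 1443, 208 and 500. Nxph1 was 7.99-fold higher by its representative probe set, another gave a log2 ratio of 2.01, and a dim one gave a bound of 0.19 or higher. Of the 15 genes furthest up, 3 were highest on the wild-type array, 9 were read by a single measured probe set and 1 was in the chemokine, cytokine or interferon lists (Icam1).

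Genes of the extracellular matrix were in part higher. Of 30 measured collagens and matrix proteins, 7 (23.3%, against 4.19% of all genes) were at least 2-fold higher, none 2-fold lower, and the median was 0.10. Above 0 were 16 and below 0 were 14, among them Lama1 (−0.59), Col3a1 (−0.53) and Col1a1 (−0.32). Thbs1, the matrix protein thrombospondin 1, read 1582 at 10 weeks, 190 at 4 weeks and 733 in the wild type, with log2 ratios of 3.05 and 2.77. Col12a1 was also past 2-fold on all its measured probe sets. Bgn, Loxl1 and Lamb1 were among the 7 higher genes but fell within 2-fold under at least 1 alternative setting. Bgn gave log2 ratios of 1.89, 0.65 and 0.44 over its probe sets. Fstl1, a secreted glycoprotein that binds BMP ligands and is counted in the BMP list, read 2133, 315 and 2149. Its 10-week and wild-type readings were thus close. Of 20 measured matrix proteases and inhibitors, 6 were at least 2-fold higher, with a median of 0.57 beside 0.09 against the wild type. Mmp23, a metalloprotease, read 993, 271 and 285, and Timp3, an inhibitor of metalloproteases, read 3163, 1437 and 1274 with log2 ratios from 1.14 to 1.45 over 4 probe sets. For both, the 4-week arrays lay close together. Serpinb2, an inhibitor of plasminogen activators, and Mmp12, the macrophage elastase, were instead highest in the wild type, with 1603, 331 and 4491, and 601, 211 and 2681.

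Markers of other testis cells were higher in part. Of 14 measured genes of peritubular and smooth muscle cells, 3 (21.4%, against 4.19% of all genes) were at least 2-fold higher (Cald1, Tpm1 and Tpm2) and none 2-fold lower. The median was 0.34, with 12 genes above 0 and 2 below. The sum was 26600 at 10 weeks, 18432 at 4 weeks and 17510 in the wild type. The log2 ratio was 0.44 for Acta2 and 0.17 for both Des and Actg2. The 2 genes below 0 were Myl9 (−0.14) and Smtn (−0.31). Cald1, the actin-binding caldesmon, read 3355, 741 and 3509. Of 9 measured Leydig cell and steroid synthesis genes, 1 (11.1%) was at least 2-fold higher and 1 (Nr0b1, 11.1%, against 3.51% of all genes) lower. Their median was 0.61 and their sums were 9466, 7445 and 5448. The higher one was Cyp17a1, an enzyme of androgen synthesis, which read 1175 at 10 weeks, 364 at 4 weeks and 117 in the wild type. Star, the cholesterol carrier of steroid synthesis, read 2896, 2098 and 1286, and Cyp11a1, its first enzyme, 1182, 669 and 491. The 10-week array was the highest and the wild-type array the lowest on all 3. Hsd3b1 (287, 188 and 265) and Hsd11b1 (422, 248 and 516) were instead lowest on the 4-week knockout array. Endothelial, fibroblast and epididymal lists had medians of 0.33, 0.14 and 0.04, with 1 gene past 2-fold among them (Cldn5). Of 4 measured red blood cell genes none passed 2-fold and all were above 0, with a median of 0.65 and sums of 1843, 1193 and 1553.

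Factors that Sertoli cells supply to the stem cell niche were mostly within 2-fold. Of 23 measured niche growth factors, 2 (8.70%, against 4.19% of all genes) were at least 2-fold higher, none 2-fold lower, and the median was 0.24. These were Cxcl12 and Tgfb2, both as bounds on the probe set that represents the gene. Other probe sets of each gave log2 ratios down to 0.00 for Cxcl12 and 0.36 for Tgfb2. Gdnf, the growth factor that keeps spermatogonial stem cells renewing, read 359 at 10 weeks, 480 at 4 weeks and 238 in the wild type. Kitl, the ligand of the KIT receptor on differentiating spermatogonia, read 5784, 5107 and 4732. Among BMP signalling and Id genes, 4 of 21 (19.0%) were at least 2-fold higher and 1 (4.76%, against 3.51% of all genes) lower. The higher ones were Fstl1, Smad7, Bmpr1b and Id3. All but Fstl1 fell within 2-fold under at least 1 alternative setting. No gene of the Wnt and insulin-like growth factor lists (19 and 15 measured) passed 2-fold. Of 30 measured junction genes, 2 (6.67%) were at least 2-fold higher and 3 (10.0%) lower, with a median of 0.02. Both higher ones, Cldn5 and Dsg2, fell within 2-fold under at least 1 alternative setting. Of 18 measured retinoid genes, Rdh10, a retinol dehydrogenase, was higher (3049, 1462 and 1795, both probe sets past 2-fold) and Aldh1a2, a retinoic acid synthase that germ cells also make, was lower (563, 1196 and 1598).

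Cholesterol synthesis genes lay within 2-fold for the most part. Of 23 measured genes, 20 lay within 2-fold, 3 (13.0%, against 3.51% of all genes) were at least 2-fold lower, none was 2-fold higher and 17 were below 0, with a median of −0.46. Sqle, squalene epoxidase, read 866 at 10 weeks, 2223 at 4 weeks and 2100 in the wild type. Srebf2, the regulator of the pathway, read 610.1, 1281 and 856, and its other probe set was short of 2-fold at −0.45. Fdft1, squalene synthase, had log2 ratios from −1.39 to 0.23 over its 4 probe sets. Glycolysis and lactate export, by which Sertoli cells feed germ cells, had a median of −0.20 with 1 of 18 measured genes (Slc2a3) at least 2-fold lower.

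The genes furthest down at 10 weeks included 2 that were bright on 1 of the 3 Sertoli arrays, the 4-week knockout array. Vil1, the actin-bundling protein villin, read 169 at 10 weeks, 18037 at 4 weeks and 141 in the wild type. Sox1, a neural transcription factor, read 1.71 at 10 weeks, 5941 at 4 weeks and 1.67 in the wild type. Vil1 has 1 probe set. A second probe set of Sox1 was under the floor on all 3 Sertoli arrays (54.9 on the 4-week knockout array) and does not repeat the reading, and on the arrays of the TM4 line without and with ERM the brighter one read 853 and 184. Most of the other genes furthest down were lowest at 10 weeks and highest in the wild type. Cers3, a ceramide synthase, read 113, 1233 and 1927, and Spata33 read 104, 1044 and 1495. Spata4 read 225, 2170 and 3486, and Rpl39l, a ribosomal protein variant of the testis, read 335, 2947 and 3600. Ybx2, an RNA-binding protein of germ cells, read 139, 1257 and 955. Like Tnp2 and the Sertoli marker Aqp8, which are also among the genes furthest down, it was highest on the 4-week knockout array. Nek2 was at least 8.90-fold and Ube2t 9.81-fold lower on the brightest probe set, but dimmer probe sets gave log2 ratios of −0.15 and −0.05. Of the 15 genes furthest down, 10 were highest on the wild-type array, 13 had a single measured probe set and 4 were in the germ cell lists. Among genes with at least 2 probe sets past 2-fold, the 15 furthest down began with Dazl, Stk31 (102, 673 and 1319) and Fabp9 (306, 2134 and 3676), and 12 were highest on the wild-type array.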

How the data were processed

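RNA was measured on single-colour Affymetrix arrays. The authors deposited 1 linear intensity for each probe set and array, never below 1. Software and scaling: not given in the sources used here. Groups were taken from the labels. The whole-testis arrays, of another design, were not used here.

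Of 45101 probe sets, 64 controls, 932 that name several genes and 9160 that name none were left out. Each array was scaled to a trimmed mean (2nd to 98th percentile) of 500 and floored at 100, which is 0.2 of it. A gene was represented by its brightest probe set (mean over the 5 arrays of the table), and log2 ratios were taken. Gene identifiers of 34741 probe sets matched the GRCm38.p6 gene table. Genes were counted at 2-fold. Only the number of arrays sets the precision, and no interval was computed.

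Rules set which genes to name: Etv5, the 15 furthest up and down that are bright and whose measured probe sets share a direction, the 15 with at least 2 probe sets past 2-fold, up to 5 a side in each of 34 gene lists, 10 set Sertoli genes and the controls. Further list members outside these rules, such as Sycp3, Piwil2, Cxcl5 and Csf1r, were named beside them. The members and lists were chosen with earlier results of these data known. In promoters of 250 bases, 10 patterns were searched. Alternatives to the scale, floor, probe set rule and reference array were computed. Steps were tested on simulated data. Python 3.11.15, numpy 2.4.6, pandas 2.3.3 and matplotlib 3.10.9 were used.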

Additional observations from a re-analysis of the deposited data

Results flagged for a closer look

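The 18S ribosomal RNA control probe sets, which enter no gene comparison, read higher on the 4-week knockout array than on the other Sertoli arrays. The 5′ control read 4551 there, against 352 at 10 weeks and 349 in the wild type. The middle control read 3037, against 347 and 297, and the 3′ control read 1966, against 587 and 666. The differences between the knockout ages were 12.9-fold, 8.75-fold and 3.35-fold. On the TM4 arrays the 3 controls read between 236 and 549.6. No other array of the table came near these readings, and their part in the ratios of 10 over 4 weeks was not tested.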

How the results depend on the processing

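The counts of 664 higher and 557 lower genes stayed within 1.5 times with the values as deposited (705 and 527), centred (705 and 530), quantile normalized (641 and 565), with the floor at 0.1 (847 and 726) or 0.4 (494 and 381) of the trimmed mean, with the mean over probe sets (521 and 469) and without probe sets that may cross-hybridise (577 and 474). They were 131 and 65 with at least 2 probe sets past 2-fold, and 437 and 324 with the brighter array at the trimmed mean or above, since both rules leave out genes. With the wild-type array in place of the 4-week knockout array, an alternative added for these counts after seeing the data, 258 were higher and 672 lower. In that setting the CXC and CX3C chemokine median reversed from 1.23 to −0.11. The medians of CC chemokines (0.83 to −0.34), macrophages (0.38 to −0.43) and cytokines (0.62 to −0.03) also fell below 0. Those of interferon response (0.16), matrix proteases (0.09), S phase (−0.63), mitosis (−0.97), FGF and ERK response (0.20), prostaglandins (0.19) and red blood cells (0.23) moved and kept their sign. The spermatid median was −0.67 with the floor at 0.4 and −0.56 without cross-hybridising probe sets, those of epididymis 0.57 and red blood cells 0.19 in the same order. Selp reversed to 0.41 without cross-hybridising probe sets. Of 139 genes past 2-fold that were named by the set rules, 107 were so in all 7 alternatives that give each gene a value. The causes were not tested. No scaling moved the median of all genes by over 0.1. No paired analysis was possible because each group has 1 array, and for the same reason no replicate could be left out. Signal near the floor limits the ratios of dim genes: 92 of the higher and 134 of the lower genes are bounds.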

Other observations

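The genes in this section were chosen after their values were seen, and their counts stand beside 4.19% of all genes at least 2-fold higher and 3.51% lower. Guanylate-binding proteins and immunity-related GTPases, which act against intracellular pathogens downstream of interferon, had 10 measured genes, 4 of them at least 2-fold higher at 10 weeks and none lower, with a median log2 ratio of 0.85. Igtp read 3247 at 10 weeks, 989 at 4 weeks and 2322 in the wild type, a log2 ratio of 1.71, and Iigp1, Irgm1 and Irgm2 had 1.23, 1.13 and 1.11. Of 13 measured Serpinb genes, which encode intracellular protease inhibitors, 5 were at least 2-fold higher and none lower, with a median of 0.38. Antigen presentation was uneven: the class II gene H2-Ab1 had a log2 ratio of 1.06, while the class I genes H2-K1 and H2-D1 had 0.15 and 0.08.

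Of 18 measured circadian clock genes, 2 were at least 2-fold lower at 10 weeks and none higher, with a median of −0.05. Dbp, a clock output factor, read 1382 at 10 weeks, 3551 at 4 weeks and 2246 in the wild type. Ciart, a clock repressor, read 230 at 10 weeks, 497 at 4 weeks and 468 in the wild type. Arntl, the activator of the clock, had a log2 ratio of 0.70, and Nr1d1 and Per1 had 0.48 and 0.22. The sources do not give the time of day at which tissue was taken.

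Of 5518 measured probe sets with no gene, 182 (3.30%) were at least 2-fold higher and 77 (1.40%) lower. Of 776 that name several genes, 43 (5.54%) were higher and 25 (3.22%) lower. One that names Jak3 and Insl3, the latter a Leydig cell hormone, read 9047 at 10 weeks, 1835 at 4 weeks and 2883 in the wild type. Another, which names Oog1, read 1082 at 10 weeks and under the floor on both 4-week arrays.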
